A study of Mus musculus with 12 samples.

Results

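Cytosine methylation was compared between the oral tissue of mice that received the carcinogen DBP with an unnamed chemopreventive agent and of mice that received DBP with BR extract. The comparison took 3 samples of the first group (DBP+agent) and 3 of the second (DBP+BR extract), 6 of the 12 samples of the series. Of 3405496 autosomal CpGs with a read in any of these 6 libraries, 200373 had at least 10 reads in every one and were tested. They were chosen by coverage alone.

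The series treated 8 week-old female B6C3F1/J mice on AIN-93M diet, in 4 groups of 3: DMSO vehicle, DBP, DBP+agent and DBP+BR extract. DBP (dibenzo[def,p]chrysene) is a polycyclic aromatic hydrocarbon of tobacco smoke, and 24 nmol was applied in the oral cavity 3 times a week for 5 weeks. Tissue was taken 48 h after the last dose, and the soft tissues of the mouth (buccal mucosa, floor of mouth and soft tissue of the hard palate) were combined. DNA was read by enhanced reduced representation bisulphite sequencing, in which MspI cuts at CCGG and unmethylated cytosines are converted before sequencing. Both groups compared here had DBP, so neither shows the tissue without the carcinogen. The labels call both additions chemopreventive agents. What the first one is, what BR stands for, and the dose and route of either are not given in the sources used here. They also do not say whether each sample is one mouse, so the tests that use a spread measure that between samples. Logistic regression, also used below, takes in the counting of reads only.

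In mammals, methylation at CpGs is copied to the daughter strand by DNMT1, laid down anew by DNMT3A and DNMT3B, and oxidised by the TET enzymes. CpG-rich promoters of active genes are usually unmethylated, whereas most CpGs in gene bodies and between genes are methylated. Imprinted genes carry the mark on the allele of 1 parent. In squamous carcinogenesis, promoter methylation is known for silencing tumour suppressors such as Cdkn2a, the gene of the cell cycle inhibitors p16 and p19. The tissue was bulk, so a different mixture of cells and a different level within each cell cannot be told apart.

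The reference sequences below belong to 7 of the called features without overlap of the groups that had the smallest edgeR p, shown so that the density of CpGs and the MspI cut sites that bound the reads can be seen. All are the plus strand of mm9. In the first pair, chr2:90924727-90924816 in an intron of Sfpi1 and chr1:75746482-75746566 between genes near Slc4a3, capitals mark the 5 CpGs read in all 6 samples.

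Sfpi1: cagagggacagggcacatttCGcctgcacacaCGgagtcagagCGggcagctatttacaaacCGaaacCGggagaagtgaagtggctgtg
Slc4a3: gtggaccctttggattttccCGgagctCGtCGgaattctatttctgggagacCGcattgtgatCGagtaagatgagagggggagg

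In the next 5, capitals mark the called CpG at bases 41 and 42 of each window and any CCGG site. Their windows are chr8:126900288-126900369 (Pgbd5), chr11:76110849-76110930 (Nxn), chr5:24478491-24478572 (Prkag2), chr13:21355797-21355878 (nearest Gpx5) and chr5:122284086-122284167 (Sh2b3). The CpGs of Gpx5 and Sh2b3 lie inside the CCGG site itself.

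Pgbd5: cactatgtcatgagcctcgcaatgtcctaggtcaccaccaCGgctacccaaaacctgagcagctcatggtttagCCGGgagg
Nxn: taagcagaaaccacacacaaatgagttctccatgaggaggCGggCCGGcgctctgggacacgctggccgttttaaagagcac
Prkag2: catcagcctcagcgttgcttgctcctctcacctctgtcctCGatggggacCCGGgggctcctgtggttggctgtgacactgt
Gpx5: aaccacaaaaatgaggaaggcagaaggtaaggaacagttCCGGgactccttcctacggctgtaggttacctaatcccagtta
Sh2b3: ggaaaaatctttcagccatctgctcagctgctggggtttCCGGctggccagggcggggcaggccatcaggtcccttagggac

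These 6 libraries were the deepest of the series. The DBP+agent samples held 39615620, 26953761 and 16908728 CpG calls, and the DBP+BR extract samples held 78889043, 17712547 and 26280440, against 3287367 to 7974299 in the other 6 libraries. The median depth of a tested CpG was 71, 51 and 30 reads in DBP+agent and 67, 28 and 50 in DBP+BR extract. The 15 pairs of samples correlated at r of 0.912 to 0.953 over the tested CpGs, and no 2 samples were copies of each other. The mean r was 0.934 within groups and 0.934 between groups, a description across CpGs, which are not independent. The first principal component (27.3% of the variance) set DBP+agent sample 3 against DBP+BR extract sample 2.

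Averaged over the genome, the 2 groups overlapped in the measures that follow, except in windows of 1000 bp, where they were narrowly apart. The mean methylation of the 200373 CpGs was 34.7, 33.3 and 33.2% in DBP+agent and 33.5, 33.0 and 33.0% in DBP+BR extract. The difference, DBP+BR extract minus DBP+agent, was -0.575 percentage points, and the groups overlapped (exact permutation test, two-sided, p = 0.5, n = 3 and 3). With 3 against 3 this test cannot give a p below 0.1. The methylated share of all CpG calls, which also counts thinly read positions, was 30.7, 32.0 and 35.5% against 29.3, 39.3 and 34.1% (exact permutation p = 0.7).

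Fixed windows (tiles) of 1000 bp were read as sums over their CpGs, where each sample had at least 20 reads. Their mean was 54.6, 53.1 and 53.0% in DBP+agent and 52.3, 53.0 and 52.8% in DBP+BR extract, a difference of -0.874 points with every DBP+BR extract sample lower (exact permutation p = 0.1, the smallest possible). The SD in DBP+agent was 0.875 points, and the nearest samples of the groups stood at 53.05 and 52.97%. Without DBP+agent sample 1 the difference was -0.369 points. When only the positions read in all 6 libraries were summed, the means were 53.3, 51.8 and 51.7% against 52.0, 51.5 and 51.5%, and the groups overlapped (exact permutation p = 0.4). Promoters, taken as 1000 bp on either side of the transcription starts of a protein-coding gene, had means of 14.3, 13.1 and 13.3% against 12.1, 13.9 and 13.2% (exact permutation p = 0.5).

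**Figure D1:**
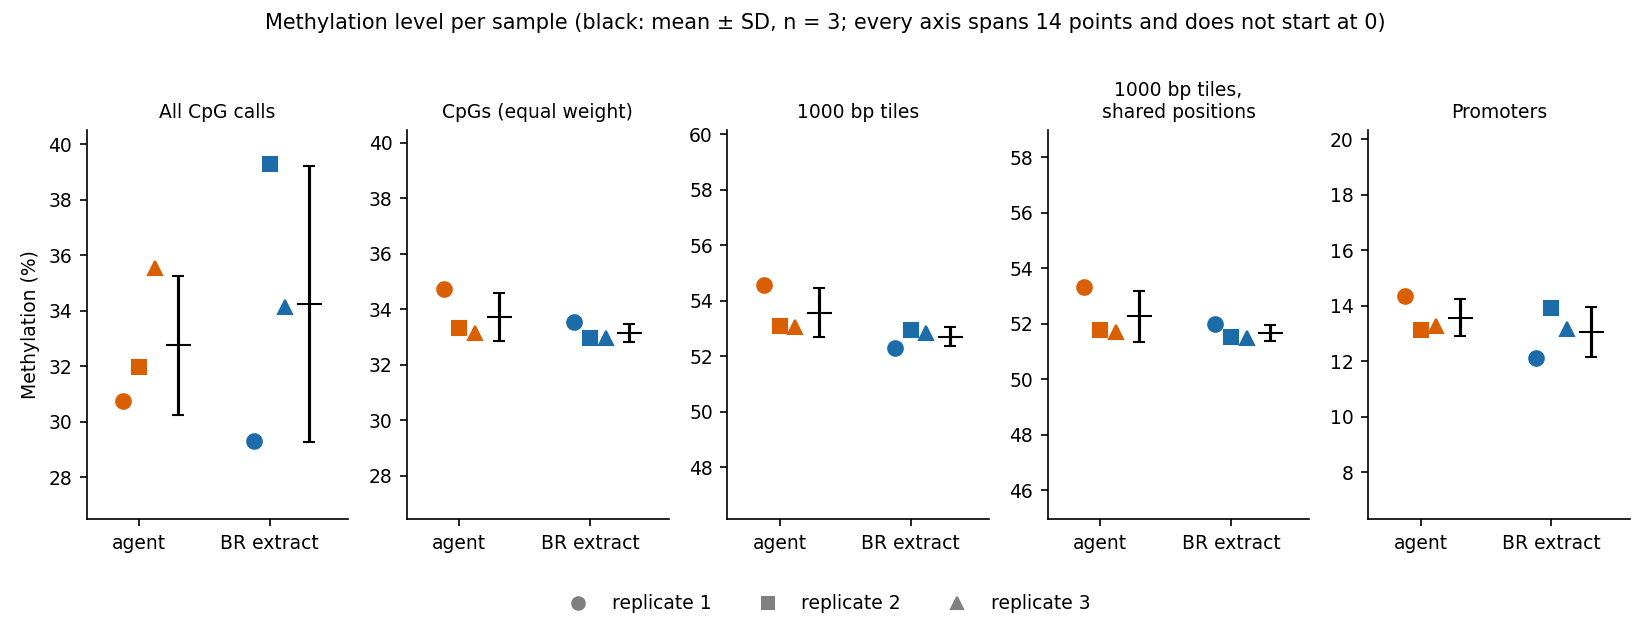
Methylation (y axes, percent, each spanning the same range and not starting at 0) in the 3 DBP+agent and 3 DBP+BR extract samples, for all CpG calls, the tested CpGs, 1000 bp windows, the same windows over shared positions, and promoters. Points are samples and black marks the mean ± SD, and the widest scatter is in the share of all calls in DBP+BR extract, 29.3 to 39.3%.

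At single CpGs the answer depended on whether the spread between samples entered the test. Logistic regression on the reads, which does not use that spread, called 3135 CpGs at q under 0.01 and a pooled difference over 25 points, 1.56% of those tested. Of these, 1147 were higher and 1988 lower in DBP+BR extract (63.4% lower). In 1650 of the 3135 every sample of one group lay on one side of the other, which was also so at 5.38% of all tested CpGs. Without DBP+agent sample 1 the same test called 5722 CpGs, 51.0% of them lower, so the excess of lower calls rested on that library.

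With the threshold at 10 points, logistic regression called 22110 CpGs, 11% of those tested, 8785 higher and 13325 lower. The quasi-likelihood test of edgeR, which estimates the spread between samples, called 0 CpGs at an adjusted p under 0.05 (0% of those tested). Its smallest p was 1.17e-05, with an adjusted p of 0.699. It gave 7646 CpGs an unadjusted p under 0.05, 3.82% of the tests, where logistic regression gave 66843 (33.4%). For CpGs, edgeR drew the spread fully from values shared among them, so no CpG had a spread of its own. The share at an unadjusted edgeR p under 0.05 was 1.69% at CpGs with a mean level of 20 to 80%. It was 5.03% above that range and 4.30% below it. Of 2 tests with limma, added after the data were seen, one called 0 CpGs on the log2 ratio of methylated to unmethylated reads and the other called 7 on the arcsine scale, with 6981 and 6210 at an unadjusted p under 0.05.

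The spread behind this is seen at the 49705 CpGs of intermediate level (20 to 80% on unscaled reads). There, the variance between samples of one group had a median of 4.12 times that which counting of reads alone gives, and the same ratio was 5.06 in windows of 1000 bp and 10.3 in promoters of intermediate level. The ratio also grows with the number of reads, which was larger in windows and promoters. The median SD within DBP+agent and DBP+BR extract was 8.74 and 9.68 points in these windows and 7.11 and 10.3 in these promoters. For a CpG it was 13 points in DBP+agent and 13.2 in DBP+BR extract. The median difference between the group means of a CpG was 8.95 points.

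**Figure D2:**
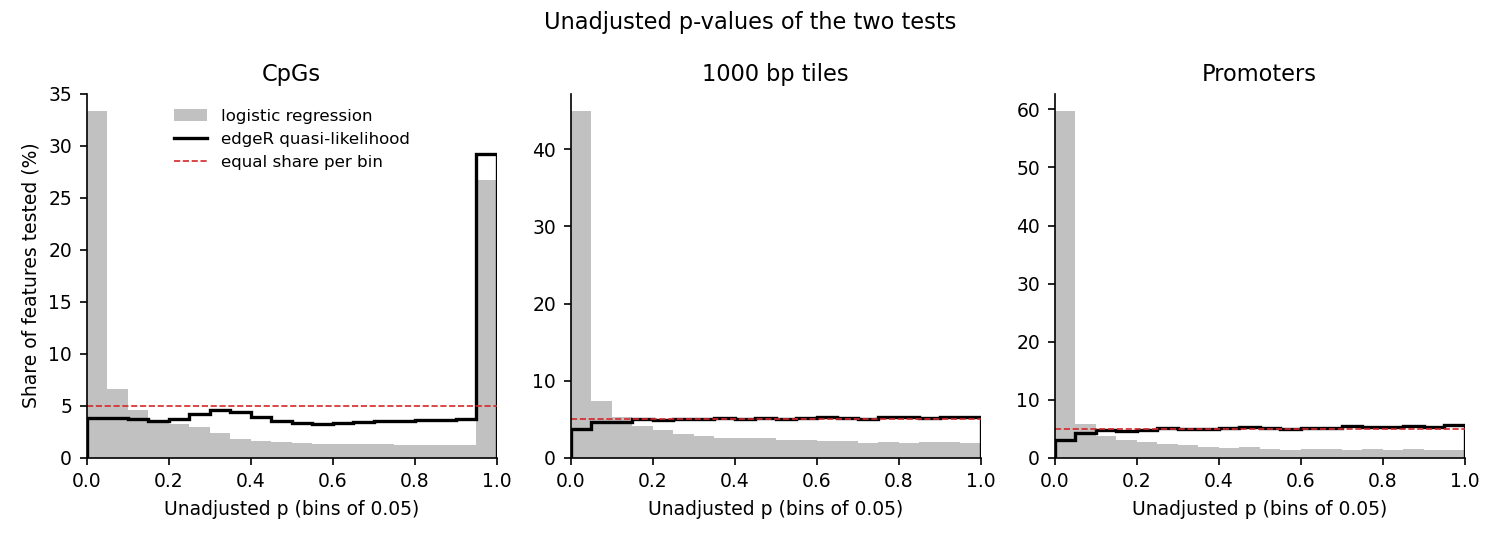
Share of features tested (y axis, percent) in bins of unadjusted p of width 0.05 (x axis) for CpGs, 1000 bp windows and promoters, with logistic regression in grey, edgeR as a black line and an equal share per bin dashed. Logistic regression put 33.4% of CpGs in the lowest bin and edgeR 3.82%.

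The CpGs called at 25 points were counted by place. They made up 0.804% of the 103674 promoter CpGs, 2.10% of 21516 in exons, 2.76% of 32705 in introns and 2.23% of 42478 between genes. Of CpGs with a mean level of 20 to 80%, 5.61% were called (2790 of 49706), and 213 called CpGs lay above that range and 132 below it. How far the level of the CpGs accounts for the order by place was not tested.

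CpGs near a called one leaned the same way. For called CpGs of intermediate level, neighbours within 100 bp were counted if they were of intermediate level too. Of 2891 such neighbours, 80.4% differed in the same direction, with a median of 13.9 points against 28.8 at the called CpG. Neighbours outside that level were left out. Among all CpGs of intermediate level the same share was 63.9% of 37994 pairs. Neighbours at 2 to 10 bp shared the direction in 87.8% of pairs and those at 31 to 100 bp in 73.1%. Most of these pairs lie on the same reads, so they share molecules and are not separate observations.

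The 2 strands of a CpG are read from different molecules. Of 37 CpGs called on the plus strand and also tested on the minus strand, 24 had the same sign there, with a median of 7.20 points against 28.5 on the called strand. Of 27 called on the minus strand, 17 had the same sign, with a median of 5.97 points. Over all 1207 CpGs read well enough on both strands the sign was shared at 53.1%. On the other strand, the called CpGs had a smaller median difference and shared the sign of the called strand more often than not. The called strand was chosen for its large difference. The smaller difference on the other strand therefore cannot be told apart from the effect of that choice.

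The 8 CpGs higher and the 8 lower in DBP+BR extract that had the smallest edgeR p among called, non-overlapping ones are described next. Their non-overlap and the logistic call chose them, so neither is support. Their order by edgeR p used the spread shared among CpGs. In edgeR all 16 had an adjusted p of 0.699 to 0.897.

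Of the 8 that were higher, 7 were fully methylated in every DBP+BR extract sample and partly methylated in DBP+agent. Pgbd5, a domesticated transposase of the piggyBac family, held the first, at chr8:126900328 in an intron. It read 34.8, 65.3 and 39.4% in DBP+agent on 46, 72 and 33 reads, and 100% on 11, 47 and 21 reads in DBP+BR extract. The DBP+agent mean was 46.5% ± 16.4 (SD, n = 3, edgeR adjusted p = 0.699). Pooled DMSO was at 51.2% on 41 reads and pooled DBP at 50.0% on 30. Single samples were at 47.8 to 66.7% in DMSO and 33.3 to 75.0% in DBP. Which group departed from these was not tested.

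Nxn encodes nucleoredoxin, a thioredoxin-like protein of Wnt signalling. Its intronic CpG at chr11:76110889 was at 81.0, 42.3 and 50.0% in DBP+agent and at 100% in each DBP+BR extract sample, with the pooled DMSO and DBP levels at 87.1 and 83.0%. At Nxn the control levels lay between the group means, and the pooled difference of 35.1 points was 55.4 without DBP+agent sample 1. Sfpi1 encodes PU.1, the transcription factor of myeloid and B cells. At chr2:90924759 it read 56.0, 26.6 and 55.8% on 50, 64 and 43 reads against 100% on 10, 15 and 19 reads.

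The only promoter CpG among these 8 was in 1700012A16Rik, at chr1:155272578. It was at 3.57, 28.1 and 16.7% in DBP+agent and at 79.2, 100 and 85% in DBP+BR extract, the widest gap of the 16 (16.1% ± 12.3 against 88.1% ± 10.7, SD, n = 3 each). The pooled DMSO level was 17.9% and the DBP level 8.33%, both on the side of DBP+agent. The others lay in introns of Rora, a nuclear receptor (67.6, 86.4 and 74.2% in DBP+agent), Casz1, a zinc finger transcription factor (88.1, 50.9 and 62.5%), Il17rd, an inhibitor of FGF signalling (76.7, 79.5 and 56.7%), and 4921515J06Rik (70.0, 53.8 and 31.6%). At each of these 4, all DBP+BR extract samples were at 100%. The differences of Rora, Casz1 and Il17rd fell below 25 points when a DBP+agent sample was left out (21.9 for Rora without sample 1, 24.3 for Casz1 without sample 2 and 21.8 for Il17rd without sample 3). Il17rd had 4 tested neighbours, all higher as well, and 2 of them were called.

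Of the 8 lower CpGs, 4 were at or near full methylation in DBP+agent and partly methylated in DBP+BR extract, and 4 were partly methylated in DBP+agent and at or near 0 in DBP+BR extract. Prkag2, a regulatory subunit of AMP-activated kinase, had an intronic CpG at chr5:24478531 with 100% in all 3 DBP+agent samples on 50, 91 and 20 reads. The DBP+BR extract samples were at 84.6, 73.1 and 51.0% on 39, 26 and 98 reads, and the pooled DMSO and DBP levels were 90.2 and 75.0%, between the group means (edgeR adjusted p = 0.699). Without DBP+BR extract sample 3 the Prkag2 difference went from -39.5 to -21.8 points and missed the threshold.

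Sh2b3 encodes LNK, an adaptor that restrains JAK2. Its intronic CpG at chr5:122284126 read 38.2, 31 and 42.6% in DBP+agent and 0% in DBP+BR extract on 13, 17 and 35 reads, with 14.3% in pooled DMSO and 37.1% in pooled DBP. At these depths the 95% Wilson intervals of the DBP+BR extract samples reached up to 22.8, 18.4 and 9.89% and cover counting error only. Ptpn14, a phosphatase that restrains YAP, had the most reads of the 16 sites, in its promoter at chr1:191610760. It was at 42.4, 45.8 and 59.7% on 132, 59 and 62 reads in DBP+agent and at 0, 1.45 and 7.87% on 10, 69 and 89 reads in DBP+BR extract. Pooled DMSO stood at 23.1% and DBP at 31.3%, between the groups, and all 3 tested neighbours of the Ptpn14 CpG were lower too, 1 of them called.

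The CpG nearest Gpx5, an epididymal glutathione peroxidase, lay 28718 bp from its start at chr13:21355837 and was at 44.4, 60.7 and 70.6% against 0, 7.14 and 0%. Esr1, the oestrogen receptor alpha, had an intronic CpG at 100% in all DBP+agent samples and at 55.6, 57.9 and 95.8% in DBP+BR extract, where the third sample was close to the other group. The Esr1 call was lost without DBP+BR extract sample 1 (-22.7 points) or sample 2 (-17.2 points). Sema5b, a semaphorin of axon guidance, had a promoter CpG at 100% in DBP+agent against 55.6, 65 and 73.7%. An exonic CpG of the kinase gene Stk40 was at 98.3, 100 and 100% against 66.7, 80 and 35.1%. Kbtbd2, a substrate adaptor of cullin-3, read 38.4, 71.4 and 10.5% against 1.94, 0 and 0% in its promoter, and only 5 of its 15 tested neighbours had the same sign.

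**Figure D3:**
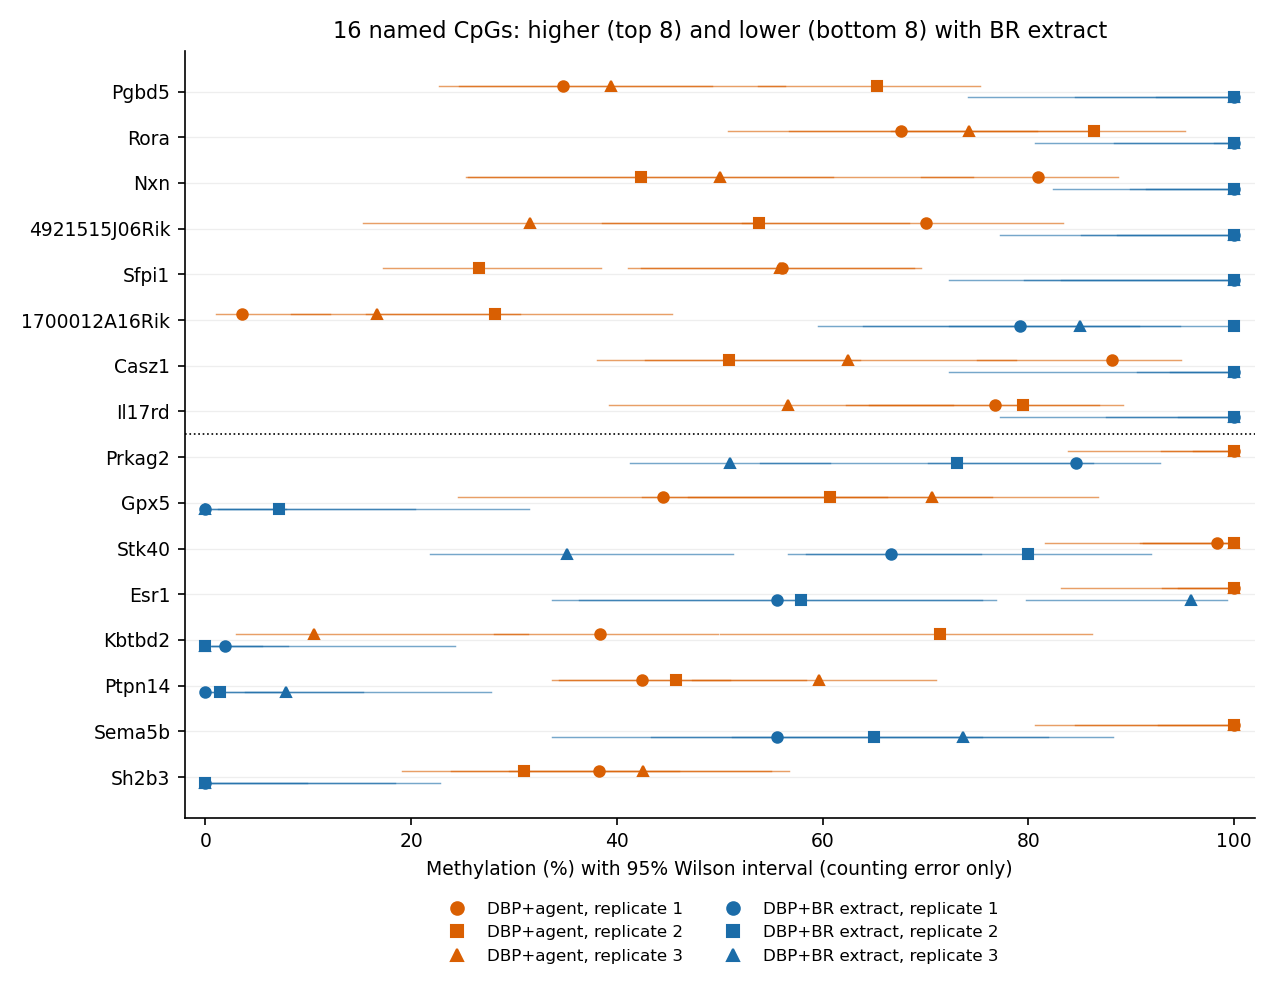
Methylation (x axis, percent) of the 16 named CpGs (y axis, by gene) in the 3 DBP+agent and 3 DBP+BR extract samples, with points for samples and lines for 95% Wilson intervals of counting error. The groups do not overlap at any of them, by the rule that chose them. The DBP+agent points scatter where DBP+BR extract is at 100%, as at Pgbd5 (34.8 to 65.3%). The choice by edgeR p may favour such levels.

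The other 2 groups were read at the called CpGs where they had at least 20 pooled reads. The pooled DBP level was nearer to DBP+agent at 1316 of 2431 CpGs (54.1%) and lay between the groups at 78.4%. The pooled DMSO level was nearer to DBP+agent at 1025 of 1841 (55.7%) and lay between at 76.9%. These shares are descriptions, and the shallow DMSO and DBP libraries give them a wide error.

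In 1000 bp windows, logistic regression called 6562 of 68895 at q under 0.01 and 10 points (9.52%), 2357 higher and 4205 lower in DBP+BR extract. The groups did not overlap at 2306 of these, and 10.1% of all windows tested did not overlap. edgeR called 0 windows, with 2553 at an unadjusted p under 0.05 (3.71%). limma called 0 on either scale, and the likelihood ratio test of edgeR called 25.

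The Sfpi1 intron (chr2:90924001-90925000) had the smallest edgeR p of the windows called higher without overlap. It was at 72.3, 53.2 and 64.4% in DBP+agent and 89.6, 96.3 and 99% in DBP+BR extract (63.3% ± 9.56 against 94.9% ± 4.85, SD, n = 3 each, edgeR adjusted p = 1.00). Its 5 CpGs read in all 6 samples, those in capitals in the sequence above, lie within 50 bp, and the groups did not overlap at any of the 5. These CpGs lie largely on the same reads, 9 to 19 per DBP+BR extract sample, so they are not separate observations. The window was also chosen for non-overlap. Over positions read in all 6 the window had 70.3, 52.9 and 65.7% against 95.9, 98.7 and 100%. Pooled DMSO was at 73.4% and DBP at 84.6%, between the groups, with single samples at 44.6 to 87.8% and 65.5 to 91.9%.

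Klf2, a transcription factor of endothelium and T cells, had the smallest q of the 10 named windows, 1.48e-73. Its window, chr8:74844001-74845000, was at 30, 42.1 and 35.9% in DBP+agent and 66.6, 69.1 and 70.0% in DBP+BR extract. The gap shrank when the same positions were summed in every sample, to 58.4, 67.5 and 61.9% against 71.4, 87.9 and 74.8%. Its first 2 CpGs, little methylated in DBP+agent, had 51 to 132 reads there and 3 to 23 in DBP+BR extract, so the sums over Klf2 weighted different positions in the 2 groups.

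The other higher windows were nearly fully methylated in DBP+BR extract. Scube3, a secreted signalling protein, read 82.8, 71.4 and 90.7% against 100% in each sample, and Nav1, a microtubule-binding neuron navigator, read 82.6, 82.7 and 86.4% against 100, 98.5 and 100%. The window of 1110012J17Rik was at 77.6, 64.2 and 92.1% against 97.2, 100 and 100%. Scube3 and Nav1 had too few reads at shared positions to be compared there. At the Scube3 CpGs read in all 6 samples the groups overlapped, with 1 read in DBP+BR extract sample 1.

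Slc4a3, an anion exchanger, was only the nearest start, 200088 bp away, to the window with the largest gap of the 5 lower ones named, chr1:75746001-75747000. It was at 38.5, 60.2 and 45.5% in DBP+agent and 4, 23.7 and 9.13% in DBP+BR extract (48.0% ± 11.1 against 12.3% ± 10.2, edgeR adjusted p = 1.00). Over positions read in all 6 libraries the DBP+BR extract values were 1.39, 23.7 and 7.35%. Of its 5 CpGs printed above, 4 had groups that did not overlap, and the third overlapped. These CpGs too lie largely on the same reads. Pooled DMSO (39.1%) and DBP (52.5%) lay with DBP+agent, but DMSO sample 3 (32.7%) and DBP sample 3 (27.4%) lay between the groups.

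Among the other lower windows, Parp6, of the ADP-ribosyltransferase family, had its promoter window at 11.7, 14 and 7.79% against 0, 0 and 1.04%. A window between genes, for which the start of the netrin receptor gene Unc5a was only the nearest, was at 26.9, 24.1 and 18.6% against 1.69, 1.83 and 1.92%. Olfml2b, an extracellular olfactomedin-domain protein, was at 99, 98.7 and 97.4% against 72.2, 81.8 and 86.7%. In Srd5a1, the steroid 5-alpha-reductase, DBP+agent read 17.4, 13.3 and 1.28% and DBP+BR extract 0, 0.420 and 0.386%, so the third DBP+agent sample was near the other group. Without DBP+agent sample 1 or 2 its difference was -8.25 or -8.51 points, below the threshold. The windows of Unc5a, Olfml2b and Srd5a1 had too few reads at shared positions to be compared there.

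**Figure D4:**
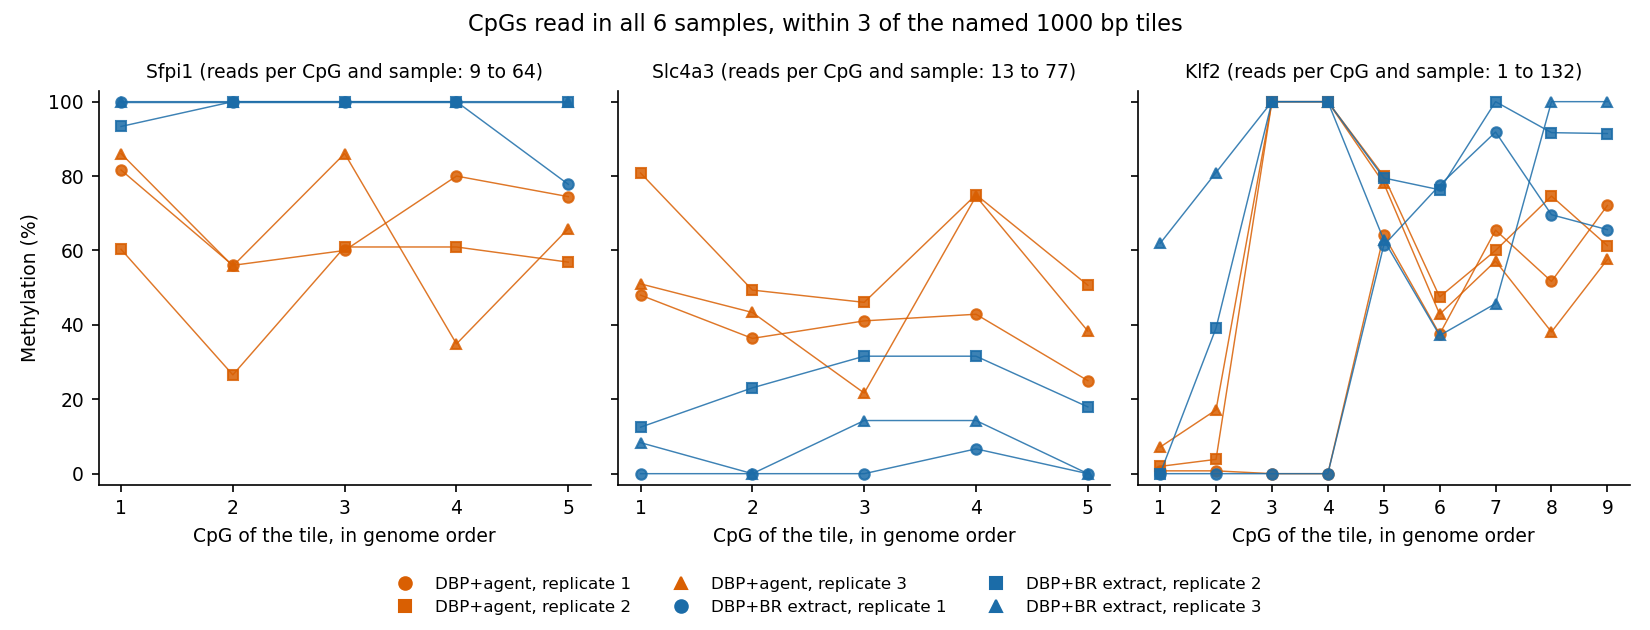
Methylation (y axis, percent) of each CpG read in all 6 samples, in genome order (x axis), in the windows of Sfpi1, Slc4a3 and Klf2, with a line per sample. The groups separated at all 5 CpGs in Sfpi1 and at 4 of 5 in Slc4a3, and they overlapped at each CpG of Klf2. The CpGs of Sfpi1 and those of Slc4a3 lie largely on the same reads, and the windows were chosen for non-overlap.

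Promoters were tested for 13432 of 21410 protein-coding genes. Logistic regression called 449 (3.34%), of which 142 were higher in DBP+BR extract (1.06% of those tested) and 307 lower (2.29%). The groups did not overlap at 99 of the 449, against 9.12% of all promoters tested. Without DBP+BR extract sample 1 the test called 479, of which 38.0% were lower instead of 68.4%, so that the excess of lower promoters rested on this library, the deepest. edgeR called 0 promoters, with 401 at an unadjusted p under 0.05 (2.99%), and limma called 0 on either scale.

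Among the promoters that logistic regression called higher without overlap, the named ones with the smallest edgeR p began with Klhl33, a kelch-like protein (20.2, 13.8 and 24.0% against 66.3, 50.0 and 48.4%). Slc28a3, a concentrative nucleoside transporter, was at 24.9, 16.7 and 12.5% in DBP+agent and 53.3, 57.9 and 30.2% in DBP+BR extract, and the groups still did not overlap over shared positions. Its pooled difference of 22.9 points was 12.5 without DBP+BR extract sample 2 and 36.5 without sample 3. Tdgf1 encodes Cripto, a co-receptor of Nodal, and was at 37.8, 44.7 and 33.0% against 75.7, 62.2 and 54.5%, with 85.7, 63.9 and 55.6% in DBP+BR extract over shared positions. Il16, a chemoattractant cytokine, was at 83.3, 73.9 and 77.8% against 95.3, 95.2 and 96.1%. At Ftsjd1, an RNA cap methyltransferase, 1 sample made the mean, with 2.24, 0.826 and 0% against 4.02, 11.1 and 51.7%, and without the third DBP+BR extract sample the difference was 2.82 points and not called. The other 3 were Mettl11a, Gm4799 and 6030429G01Rik. Among these higher promoters only Slc28a3 and Tdgf1 had enough reads at shared positions to be compared there.

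Of the 8 promoters called lower without overlap, Prss22, a serine protease, was at 35.3, 57.1 and 55.2% in DBP+agent and 19, 20.9 and 7.02% in DBP+BR extract. Car6, the carbonic anhydrase of saliva, was at 96.9, 95.3 and 96.2% against 85.7, 85.2 and 78.4%, high in both groups. Gna15, a G protein alpha subunit of blood cells, was at 39.6, 36.8 and 35.6% against 24.8, 9.09 and 9.95%, and stayed apart over shared positions. Ndufv3, a subunit of respiratory complex I, was at 23.4, 14 and 22.3% against 6.95, 8 and 8%, and also stayed apart.

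Slc15a1, the peptide transporter PEPT1, did not. Its promoter was at 26.0, 15.6 and 23.2% against 11.6, 6.84 and 10.1%, but over shared positions at 19.6, 16.8 and 11.3% against 15.2, 4.59 and 9.96%, where the groups overlapped and the call was lost, as it was without DBP+agent sample 1 (-7.72 points). Ripply3, a transcriptional corepressor, was at 49.1, 31.2 and 47.3% against 6.45, 22.5 and 16.3% and had too few reads at shared positions. The rest were 9430002A10Rik (92.5, 98.0 and 90.1% against 71.6, 74.2 and 68.4%) and Gm10094. Prss22, Car6 and Gm10094, like Ripply3, had too few reads at shared positions to be compared there. The 16 promoters had edgeR p of 0.00427 to 0.025 and adjusted p of 1.00.

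Lists of genes were then read for the cell types of oral tissue and for the processes that carcinogen and chemopreventive treatment are known to touch. Of 405 genes in 14 lists, 290 had a tested promoter. edgeR called 0 of them, with 5 at an unadjusted p under 0.05, and logistic regression called 12 (4.14%, beside 3.34% of all promoters), 5 higher and 7 lower in DBP+BR extract. The groups did not overlap at 3 of these 12, beside 22.0% of all called promoters and 9.12% of all promoters tested. The median difference of the 290 was -0.700 points, beside -0.485 over all promoters.

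The squamous epithelium list (keratins, desmosome and cornification genes) had 22 of 39 promoters tested. Its mean was 21.8, 21.1 and 23.7% in DBP+agent and 18.1, 18.7 and 19.7% in DBP+BR extract, lower in every DBP+BR extract sample. Of the 14 lists read, 2 had means without overlap of the groups, and 1 over shared positions. For this list the exact permutation test gave p = 0.1, the smallest possible with 3 against 3. The median difference of the list was -2.18 points, against -0.485 over all promoters tested. Over shared positions the means were 22.7, 21.8 and 24.8% against 20.7, 20.3 and 20.5%. In the 19 of these promoters read in all 12 samples, DBP+agent was at 20.7, 20.5 and 22.0% and DBP+BR extract at 17, 19.2 and 18.9%, with DMSO at 19.2, 20 and 19.7% and DBP at 19.9, 20.7 and 18.7%. The highest of these 12 values was that of DBP+agent sample 3 and the lowest that of DBP+BR extract sample 1.

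Within that list only Tgm1 was called, 1 of 22, beside 3.34% of all promoters tested. Tgm1, the transglutaminase that cross-links the cornified envelope, was at 70.8, 76.6 and 83.2% against 60.9, 57.6 and 71.7%, and the groups overlapped. Over shared positions Tgm1 was at 75.0, 77.9 and 85.7% against 86.8, 58.8 and 76.1%. There its pooled difference turned to 2.62 points in the other direction, but the difference of the sample means was -5.62. Over all positions the pooled difference was -7.81 points without DBP+BR extract sample 1, and not called. Krt5, the keratin of basal cells, was at 60.3% in DBP+agent and 48.4% in DBP+BR extract, and Krt4, a keratin of the upper layers, at 89.0 and 84.0%, neither called. Promoters of Cdh1 (14.4 and 12.0%) and Epcam (6.38 and 4.86%), the adhesion molecules of epithelial cells, were low in both.

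Of the other cell types, the skeletal muscle list had 22 of 41 promoters tested, with means of 50.0, 47.2 and 49.3% against 46.5, 46.6 and 49.2%. Logistic regression called Tnni1, Pvalb and Eno3 lower and Pygm higher, 4 of 22, beside 3.34% of all promoters tested. All promoters had lower means, 12.1 to 14.3%, and the part of the level in the calls was not tested. None of these 4 calls held throughout. Without DBP+BR extract sample 1 the pooled differences of parvalbumin, Pvalb, and muscle glycogen phosphorylase, Pygm, reversed, from -12.2 to 16.7 points and from 11.4 to -9.63 points. Over shared positions they were -1.56 and 9.01 points, below the threshold. Tnni1 and muscle enolase, Eno3, each lost the call when any of 3 samples was left out. The groups overlapped at each, as at slow troponin I, Tnni1 (39.1, 29.8 and 49.5% against 48.1, 13 and 21.8%). No promoter was called in the lists for immune cells (14 of 32 tested, 41.1, 44.5 and 44.4% against 45.2, 41.2 and 41%), salivary gland (10 of 18), fibroblasts and endothelium (9 of 19) or nerve (10 of 12). Methylation does not measure expression, so these markers do not say which cells were present, and their part in the results was not tested.

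The NRF2 and phase II list holds the antioxidant and conjugating enzymes that many chemopreventive compounds induce. Of 44 genes 29 were tested, and 2 were called, beside 3.34% of all promoters tested. Gstm1, a glutathione transferase, was lower, at 59.2, 44.9 and 49.5% against 14.4, 41.6 and 31.2%, but the groups overlapped over shared positions. Gpx2, the epithelial glutathione peroxidase, was higher, at 40, 33.3 and 24.0% against 41, 48.5 and 83.1%, on 25 to 78 reads. Without DBP+BR extract sample 3 the Gpx2 difference went from 23.5 to 8.79 points and the call was lost. Promoters of Nfe2l2 (NRF2), its inhibitor Keap1 and the haem oxygenase Hmox1 were at 6.30, 3.98 and 4.44% in DBP+agent and 5.64, 3.45 and 4.19% in DBP+BR extract.

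DBP is activated by enzymes under the aryl hydrocarbon receptor. In that list (8 of 14 tested) none was called. Cyp1a1, a main activating cytochrome, was at 30 and 31.5%. The receptor repressor Ahrr was at 14.9, 15 and 23.6% against 38.0, 23.7 and 21.4%, with overlap and a pooled difference of 9.99 points, just under the threshold. Ahrr passed it over shared positions (13.9 points, 33.2, 41.7 and 49.4% against 36.3, 89.8 and 68.8%, with overlap) and when any of 3 samples was left out (11.4 to 13.1 points). Among genes for repair and bypass of DNA adducts, 1 of 33 tested was called, beside 3.34% of all promoters tested. It was Rad18, the ubiquitin ligase of lesion bypass, at 66.9, 81.9 and 73.1% against 18.5, 64.5 and 78.6%. Over shared positions Rad18 read 84.6, 86.1 and 69.3% against 92.5, 68.4 and 80.6%, where the first DBP+BR extract sample was the highest. The Rad18 call was lost there (pooled difference -6.19 points) and without DBP+BR extract sample 1 (-3.87 points). The means of the repair list were 8.56, 8.19 and 7.72% against 5.36, 7.36 and 7.32%, and overlapped over shared positions.

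Tumour suppressors silenced in oral cancer had low promoters in both groups and none of 35 was called. Dapk1, a kinase of cell death, was at 8.40, 8.34 and 9.41% against 5.34, 5.09 and 4.28%, and Cdkn2a at 5.10, 5.51 and 5.08% against 4.53, 2.90 and 3.15%. Both were lower in every DBP+BR extract sample, by under 10 points, with unadjusted edgeR p of 0.0457 and 0.0705 and adjusted p of 1.00. They were named for the 2 smallest edgeR p of the list, a choice that favours non-overlap. The groups did not overlap at 5 of the 35, beside 9.12% of all promoters tested.

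Of 24 imprinted promoters tested, 4 were called, Mest, Mcts2 and Zrsr1 higher and Snrpn lower, beside 3.34% of all promoters tested. The list means were 26.6 to 29.1%, beside 12.1 to 14.3% over all promoters. How far the level accounts for the share called was not tested. Mcts2 lost the call without DBP+BR extract sample 1 (from 21.1 to 5.25 points), and Snrpn without DBP+BR extract sample 2 (from -12.9 to -3.52 points) or DBP+agent sample 1 (-9.16 points). Zrsr1, a paternally expressed splicing gene, was at 32.9, 29.8 and 27.0% in DBP+agent and 43.3, 37.0 and 42.7% in DBP+BR extract. On 1272 to 2957 reads, and over shared positions (31.5, 26.8 and 27.9% against 43.8, 36.4 and 41%), its groups did not overlap (edgeR adjusted p = 1.00). The pooled difference of Zrsr1, 11 points, was 9.93 without DBP+agent sample 3 and 9.74 without DBP+BR extract sample 1, just under the threshold. Mest, a paternally expressed hydrolase, was at 22.6, 52.7 and 31.2% against 50.9, 59.7 and 46.3%, with overlap.

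The enzymes and readers of DNA methylation (17 of 17 tested), inflammation and prostaglandin genes (17 of 23) and Wnt and FGF genes (45 of 46) had no call. Mbd1, which binds methylated DNA, was at 14, 14.2 and 10.8% against 4.02, 9.27 and 9.22%. Cxcl2, a neutrophil chemokine, was at 9.25, 8.74 and 7.14% against 2.45, 3.61 and 5.21%. Both kept the groups apart over shared positions and missed the 10 point threshold, with unadjusted edgeR p of 0.0261 and 0.0411. Each was among the 2 smallest edgeR p of its list, a choice that favours non-overlap. The groups did not overlap at 2 of 17 promoters in the list of Mbd1 and 1 of 17 in that of Cxcl2. Over all promoters tested the share was 9.12%.

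**Figure D5:**
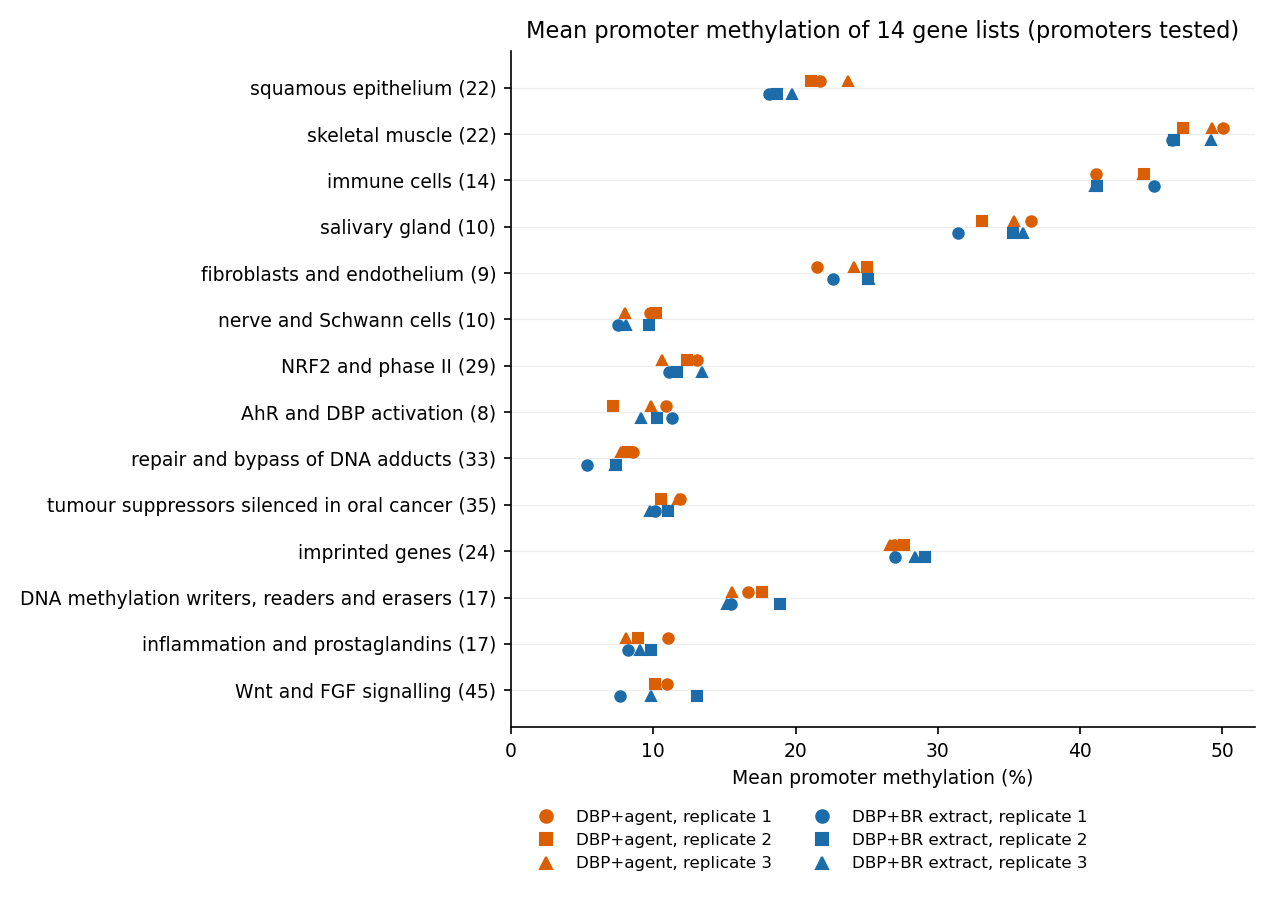
Mean promoter methylation (x axis, percent) of the 14 gene lists (y axis, with the number of promoters tested) in each of the 6 samples, DBP+agent above and DBP+BR extract below each line. In squamous epithelium the DBP+BR extract points (18.1 to 19.7%) lie below those of DBP+agent (21.1 to 23.7%). It is 1 of 2 among the 14 lists without overlap, and the skeletal muscle and immune lists have the highest levels.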

How the data were processed

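Methylation was measured in 12 mouse oral tissue libraries, and 6 were compared here. Per the paper's methods and the submitters' notes, the authors trimmed reads with Trim Galore 0.3.3 and mapped them to mm9 with Bismark 0.10.1. They deposited, for each cytosine position, a percent methylation and the methylated and unmethylated read counts, and only the deposited counts were analysed. Reads carry no molecular identifiers, so PCR copies count as reads, and counting intervals are too narrow for that reason.

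For CpGs, each strand position needed at least 10 reads and at most the 99.9th percentile of its library, read numbers were brought to the largest of the library medians, both strands of a CpG were added up, and autosomal CpGs present in all 6 samples were kept. Logistic regression used a likelihood ratio test with Benjamini-Hochberg q under 0.01 and a pooled difference (DBP+BR extract minus DBP+agent) over 25 or 10 percentage points. Windows of 1000 bp and promoters (GENCODE starts on mm9, 1000 bp to either side, merged per gene) were unscaled sums with at least 20 reads in each sample, tested at 10 points. edgeR 4.0.16 (R 4.3.3) tested unscaled counts with sample terms plus group, at adjusted p under 0.05. limma 3.58.1 was added after seeing the data, as were sums over positions read in all 6 samples. Single values per sample were compared by exact permutation. The scripts were tested on simulated data, under Python 3.11.15.

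Named CpGs, windows and promoters were those with the smallest edgeR p among called features without overlap (8, 5 and 8 in each direction), plus list members called by either test or, with none called, the 2 with the smallest edgeR p. Other genes of the lists (Krt5, Krt4, Cdh1, Epcam, Nfe2l2, Keap1, Hmox1 and Cyp1a1) were named for their role after their values were seen. The comparison, its members and the lists were chosen with earlier results of these data known. The same replicate numbers did not pair the samples, so no pairing entered the tests.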

Additional observations from a re-analysis of the deposited data

How the results depend on the processing

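Calls by logistic regression moved with coverage and samples. At 25 points, 3135 CpGs became 7662 with at least 5 reads and 757 with at least 20, and 3901 to 5722 when each sample was left out. At 10 points, 22110 became 9675 with at least 20 reads, 13944 without coverage scaling and 21175 to 25391 with a sample left out. With an overdispersion term and F test both counts were 0. Of 6562 windows, 2747 were called with at least 50 reads, and 6189 to 8159 with a sample left out, and promoters ranged over 441 to 621. The cause was not tested, except that fewer CpGs pass a stricter coverage limit. edgeR kept 0 calls with each sample left out, against 25 windows with its likelihood ratio test and 7 CpGs with limma on the arcsine scale. Called CpGs without overlap ranged over 2716 to 3758 with a sample left out, from 1650, with more CpGs called and fewer samples to overlap.

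The difference of the mean CpG level was -0.866 to -0.0776 points with each sample left out and 0.986 when weighted by reads, and that of the methylated share ranged from -1.02 to 3.96. The pooled difference of Tgm1 turned to 2.62 points over shared positions, where that of the sample means was -5.62. With a sample left out, Pvalb ranged from -25.2 to 16.7 and Pygm from -9.63 to 20.7, and both reversed without DBP+BR extract replicate 1. Of the 16 named CpGs, all lost their call under the F test, and leaving out each sample kept 89 of 96 calls. A replicate block on sample numbers gave 3059 and 20642 CpGs, 5939 windows and 422 promoters by logistic regression and 0 by edgeR, and a difference in methylated share of 1.49 points (exact permutation p = 1.0). Deviations of same-numbered samples were uncorrelated (-0.0115, -0.00151 and 0.00761), so the block is given for completeness. Depth of 10 to 20 reads in single samples limits most named CpGs.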
